A study of Drosophila melanogaster with 2 samples.

Results

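The genes described here are 44 transcription and signalling genes that pattern the early embryo of Drosophila melanogaster. They were taken from a list of names written from general knowledge of the segmentation, Hox and dorsoventral systems, and all 44 were found among the 13968 protein-coding genes of the annotation used (Ensembl release 115). By role, 11 act in the gap and head gap system, 9 are pair-rule genes, 8 belong to the Hox clusters, 11 pattern the dorsoventral axis and 5 are segment polarity genes. The measurement was chromatin immunoprecipitation followed by sequencing (ChIP-seq) of Sry-beta, one of the serendipity proteins, which bind DNA through C2H2 zinc fingers, and the question was where in or beside these genes the protein was found.

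All samples belonged to 1 group: 2 biological replicates, numbered 2 and 4, of whole embryos of both sexes aged 0 to 12 h from a transgenic line that carries Sry-beta with GFP at its C-terminal end. No untagged line and no second condition were analysed here. The labels list an antibody against Sry-β and chromatin sheared to between 200 and 800 bp. They also describe both libraries as input controls, whereas the assay title, the antibody and the deposited peak lists are those of a ChIP, and the libraries were treated as ChIP. If that description were right, none of the peaks below would be Sry-beta peaks. Whether untagged Sry-beta from the native gene was also present is not stated.

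The early embryo is patterned by a cascade of regulators. Maternal factors such as Bicoid and Dorsal form gradients that switch on gap genes and dorsoventral genes in broad domains, gap factors position the stripes of pair-rule genes, and these set the segment polarity genes and the Hox genes that give segments their identity. Many of these genes are controlled by enhancers that lie in introns or in the flanking DNA, several kilobases from the start site. The embryos were taken whole and over many stages, so occupancy of a site in few nuclei and weak occupancy in many cannot be told apart.

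The authors deposited 3257 peaks kept by an irreproducible discovery rate (IDR) procedure, a pooled relaxed list of 30000 peaks from both replicates and a relaxed list of 30000 peaks from each replicate. The pooled relaxed list was deposited as peaks and background, the input of the IDR procedure, so a summit in it need not be a bound site. Each peak has a summit and a signal value. The scale of the signal is not stated, so peaks are given by their rank by signal within a list, where rank 1 is the highest. All 3257 IDR peaks had the position, the signal and the rank of 3257 peaks of the pooled list, so the IDR list was the top of the pooled list and a pooled rank beyond 3257 lies outside it. The files hold no read counts and the depth is unknown. A promoter summit lay within 500 bp of any annotated transcription start site (TSS) of a gene, a body summit elsewhere in the gene, and a flanking summit within 20 kb of the gene's ends. No test was made, because the design has 1 group and the genes were listed with earlier results of these data known. Counts stand beside the same count over all protein-coding genes.

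None of the 44 patterning genes had an IDR summit at its promoter, whereas 2518 of the 13968 protein-coding genes (18.0%) had at least 1. From 500 bp upstream to 500 bp downstream of the TSS the IDR list held 0 summits per gene per kb for the patterning genes and 0.213 for all protein-coding genes. Outside the promoter the patterning genes also had fewer summits per gene per kb at some distances: 0.0227 from 2500 to 500 bp upstream, against 0.0418 for all genes, 0.00909 from 2500 to 5000 bp downstream, against 0.0388, and 0.0182 from 5000 to 10000 bp downstream, against 0.0388. From 15000 to 20000 bp downstream they had 0.0545, against 0.0356 for all genes. Each of these classes holds 12 summits or fewer of the patterning genes. In the 3257 highest peaks of each replicate alone, 1 patterning gene (2.27%) had a promoter summit in replicate 2, against 18.5% of all genes, and none had one in replicate 4, against 17.4% of all genes. The gene in replicate 2 was bcd.

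**Figure D1:**
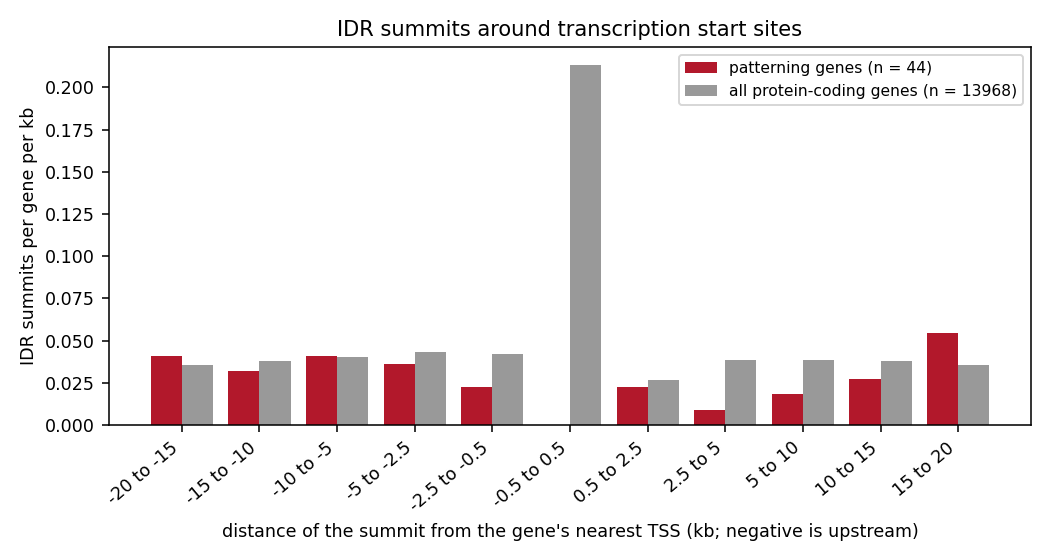
IDR summits per gene and kb of sequence (vertical axis) by distance of the summit from the nearest TSS of the gene in kb (horizontal axis, negative is upstream), for the 44 patterning genes (red) and all 13968 protein-coding genes (grey). The red bar is missing from 500 bp upstream to 500 bp downstream, where the grey bar reaches 0.213, and both colours have bars at every other distance.

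The patterning genes also differ from the gene set in how their promoters are arranged. Their median length was 4959 bp, against 2164.5 bp over all genes, and the median distance from their TSSs to the nearest TSS of another gene was 10609.5 bp, against 1379.5 bp. A head-to-head partner, a protein-coding gene on the other strand whose TSS lies upstream within 1000 bp, was annotated for 1 patterning gene, twi (2.27%), against 5052 of all genes (36.2%). Among all genes, 34.4% of those with such a partner had an IDR promoter summit, against 8.77% of the 8916 genes without a partner. The part that this arrangement plays in the absence of promoter summits was not tested.

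The relaxed lists, which reach into background, held promoter summits at some of the patterning genes. The pooled relaxed list had a promoter summit at 21 of the 44 (47.7%), against 53.1% of all genes. Replicate 2 had promoter summits at 26 (59.1%), against 54.6%, and replicate 4 at 16 (36.4%), against 50.4%. The summits of the patterning genes stood low in the pooled list. Their deposited −log10 q was 3.24 at bcd, 2.19 at nkd, and 1.36 and 1.32 at the highest summits of sog and rho. At the others it lay between 1.04 (Abd-B) and 0.185 (Antp). Counting only pooled peaks at or above the median signal left 7 of the 44 (15.9%), against 42.8% of all genes. For the 21 genes the best promoter summit had a median pooled rank of 19238 (range 4370 to 26298), and the same median was 5526 over the 7413 genes with a promoter summit. A summit within 100 bp in both replicates was found for 6 of the 24 promoter summits of these 21 genes, against 45.3% of the 8727 pooled promoter summits and 33.3% of the 6739 of these outside the IDR list.

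Of the patterning genes 14 had a promoter summit in all 3 relaxed lists (31.8%, against 42.8% of all genes): bcd, hb, kni, h, lab, Antp, Abd-B, sna, sog, dpp, rho, vnd, inv and nkd. A further 16 had none in any of the 3 (36.4%, against 37.5%): gt, tll, hkb, cad, eve, ftz, run, odd, opa, slp2, Ubx, twi, zen, tld, wg and gsb. Of the 9 pair-rule genes, 6 had none in any list. The remaining genes had a promoter summit in some lists only. For the 14, the summits of the 3 lists need not be the same. Both replicates had a summit within 100 bp of a pooled one only at bcd, sog, rho, Abd-B, lab and Antp.

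**Figure D2:**
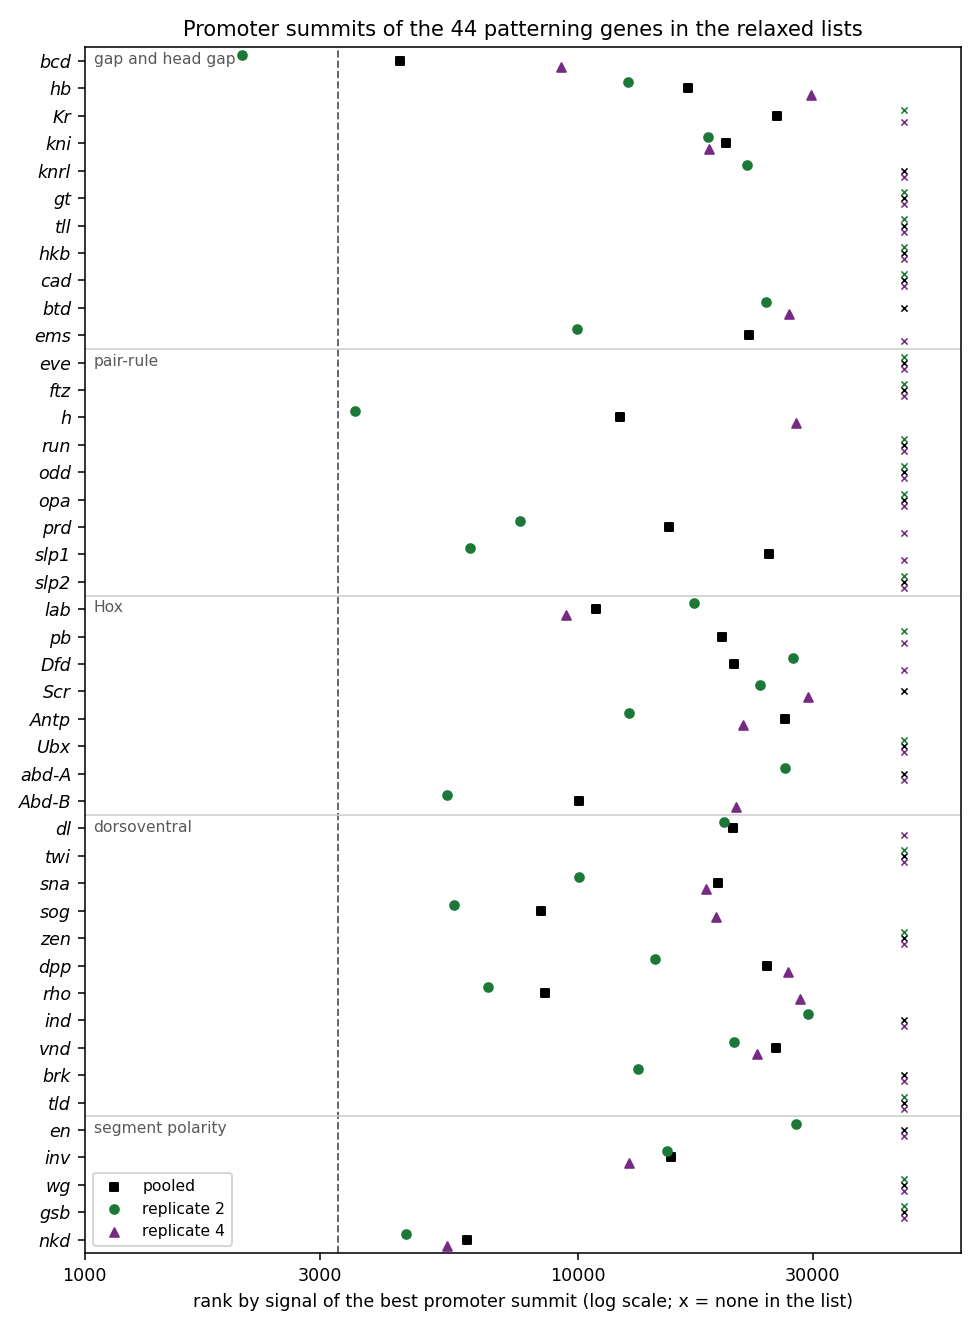
Rank by signal (horizontal axis, log scale) of the best promoter summit of each of the 44 patterning genes (rows, grouped by role) in the pooled relaxed list (black squares), replicate 2 (green circles) and replicate 4 (purple triangles), with a cross where a list has no promoter summit. The dashed line marks rank 3257, the length of the IDR list. Only the replicate 2 summit of bcd, at rank 2084, lies to its left.

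Among the genes listed with the gap and head gap system, the maternal gene bcd came closest to the IDR list. It encodes the Bicoid homeodomain protein, the anterior morphogen, and is transcribed in the ovary; the related protein Sry-delta is known to be needed for that transcription. The gene (FBgn0000166) lies on the minus strand of 3R from 6755842 to 6759466, and its promoter summit lay 177 bp upstream of the TSS. The summit ranked 4370 in the pooled list, 2084 in replicate 2 and 9267 in replicate 4. It was among the highest 3257 peaks of replicate 2 and not of replicate 4, and its pooled rank lies outside the IDR list. The gap gene hb, which encodes a zinc finger repressor and activator, had a pooled promoter summit at rank 16750, 378 bp upstream, with the best promoter summits of the replicates at 12647 in replicate 2 and 29824 in replicate 4. For kni, which encodes a nuclear receptor-type repressor, the pooled summit ranked 20038. The best kni promoter summits of the replicates ranked 18373 in replicate 2 and 18489 in replicate 4. Replicate 2 had no summit within 100 bp of the pooled one. The central gap gene Kr had a pooled summit at rank 25364, 478 bp downstream of its TSS, and no promoter summit in either replicate. For ems, a head gap homeobox gene, the ranks were 22323 pooled and 9978 in replicate 2, with no promoter summit in replicate 4. The head gap gene btd had promoter summits in both replicates, at ranks 24071 in replicate 2 and 26847 in replicate 4, and none in the pooled list, and knrl, the relative of kni, had its sole one in replicate 2 at rank 22040. Of all these ranks only that of bcd in replicate 2 was within the highest 3257. The gap genes gt (a bZIP repressor), tll and hkb (the terminal gap genes) had no promoter summit in any list, and neither did the posterior homeobox gene cad.

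The pair-rule genes had 3 promoters with a pooled relaxed summit. The highest was that of h, the Hairy repressor gene (hry in the annotation), 48 bp downstream of a TSS at rank 12216. In replicate 2 the summit ranked 3534, just outside the highest 3257, and the best h promoter summit of replicate 4 ranked 27772. The summit of prd, which encodes a paired-domain factor, lay 152 bp upstream at rank 15301, with rank 7647 in replicate 2 and none in replicate 4. The summit of slp1, a forkhead gene, ranked 24405 in the pooled list and 6042 in replicate 2, again with none in replicate 4. All 3 promoters stood higher in replicate 2.

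Among the Hox genes, Abd-B (posterior abdomen) and lab (head) had the highest promoter summits. The Abd-B summit lay 35 bp upstream of 1 of its 6 TSSs and ranked 10043 pooled, 5442 in replicate 2 and 20986 in replicate 4. The lab summit lay 31 bp downstream of a TSS and ranked 10921 pooled, 17257 in replicate 2 and 9452 in replicate 4. Here the order of the replicates was the opposite. Summits at pb (rank 19599), Dfd (20728) and Antp (26298) were lower still in the pooled list, and Ubx had none in any list. Scr had none in the pooled list but ranked 23415 in replicate 2 and 29286 in replicate 4, and abd-A had its sole promoter summit in replicate 2 at rank 26368.

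Of the dorsoventral genes, sog and rho had promoter summits in the upper part of the relaxed list. The secreted BMP antagonist gene sog had a summit 301 bp downstream of a TSS at rank 8438 pooled, 5606 in replicate 2 and 20827 in replicate 4. The rho gene, which encodes a membrane protease that releases an EGF receptor ligand, had a summit 98 bp downstream at rank 8574 pooled, 6587 in replicate 2 and 28287 in replicate 4. Both ranked higher in replicate 2. The mesoderm repressor gene sna followed at pooled rank 19238, the maternal Rel factor gene dl at 20641, the BMP ligand gene dpp at 24252 and the neuroectodermal homeobox gene vnd at 25289. The neuroectodermal homeobox gene ind and the repressor gene brk had a promoter summit in replicate 2 only, at ranks 29339 and 13279. The mesoderm bHLH gene twi, the amnioserosa homeobox gene zen and the metalloprotease gene tld had none in any list.

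The segment polarity gene nkd, which encodes an inhibitor of Wnt signalling, had the promoter summit nearest to the IDR list after bcd. It lay 161 bp upstream of the TSS at pooled rank 5977 and ranked 5431 in replicate 4. Replicate 2 had no summit within 100 bp of it, but it had a promoter summit of nkd 161 bp away, and the best rank there was 4486. The homeobox gene inv had pooled rank 15466, with its best promoter summits at 15194 in replicate 2 and 12686 in replicate 4. The homeobox gene en had a promoter summit in replicate 2 only, at rank 27684. The Wnt ligand gene wg and the paired-domain gene gsb had none in any list.

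The windows of 50 bp on either side of 2 relaxed promoter summits are shown because bcd and prd share a word in them. Sequences here are of the plus strand of the dm6 assembly, from the release 6 reference genome of RefSeq, and capitals mark the searched word AGGGGGCG on either strand, a core of the site of the insulator protein CTCF. The word was added to the search after these windows had been read, so its count supports nothing.
bcd promoter, chr3R:6759593-6759693: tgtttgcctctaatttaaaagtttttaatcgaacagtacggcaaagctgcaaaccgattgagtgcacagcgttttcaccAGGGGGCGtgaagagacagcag
prd promoter, chr2L:12085929-12086029: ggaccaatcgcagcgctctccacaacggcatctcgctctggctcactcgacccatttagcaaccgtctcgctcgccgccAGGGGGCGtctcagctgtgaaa
Exact matches of AGGGGGCG occurred in 2 of the 24 relaxed promoter windows of the patterning genes (8.33%), which are these, and in 0.407% of all 30000 pooled relaxed windows. The GAGA factor word GAGAGA occurred in 4 of the 24 (16.7%), against 4.69%, and the Bicoid word TAATCC in 3 (12.5%), against 2.92%. The 24 are all promoter windows, whereas only 8727 of the 30000 pooled windows are, and no share over promoter windows alone was computed. Within 25 bp of the summit these counts were 1 of 24 (4.17%, against 2.38%) for GAGAGA and 0 of 24 (against 1.41%) for TAATCC. The word AGAGATG, a core shared by known Sry-beta and Sry-delta sites, occurred in none of the 24, against 1.68%. The relaxed promoter windows had a mean GC content of 44.7%, against 41.2% for all pooled windows.

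Outside their own promoters the IDR list held summits in or near many of these genes, some of them at promoters of neighbours. An IDR summit in the gene or within 20 kb was found for 31 of the 44 (70.5%), close to the 67.9% of all genes. The share of all genes includes summits at their own promoters. For hb, hkb, btd, eve, prd, tld and gsb every such summit lay at the promoter of another gene. The median distance from a patterning gene's TSS to the nearest IDR summit was 15711.5 bp (range 572 to 90943 bp), and over all genes it was 10507 bp. Within 5000 bp the shares were 8 of 44 (18.2%) against 35.0% of all genes, and within 10000 bp 13 of 44 (29.5%) against 48.8%. By role the median distance was 16224 bp for gap and head gap genes, 17430 bp for pair-rule genes, 17479 bp for Hox genes, 19271 bp for dorsoventral genes and 11118 bp for segment polarity genes. All 5 segment polarity genes had an IDR summit within 20 kb, as did 8 of the 11 gap and head gap genes, 7 of the 9 pair-rule genes, 5 of the 8 Hox genes and 6 of the 11 dorsoventral genes.

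The 13 genes without an IDR summit in the gene or within 20 kb were the gap genes Kr, knrl and tll, the pair-rule genes run and opa, the Hox genes pb, Dfd and Scr, and the dorsoventral genes twi, dpp, rho, ind and vnd. Their nearest IDR summits lay between 20721 bp (rho) and 90943 bp (knrl) from a TSS. The distance was 36083 bp for Kr, 47338 bp for dpp and 26149 bp for twi.

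The summits in and around the 31 genes numbered 64, in 57 peak intervals on 5 chromosome arms, with IDR ranks between 5 and 3177 and a median of 1773. By place, 23 of the 64 lay at the promoter of another gene (35.9%, against 61.0% of all 3257 IDR summits at a promoter), 20 in introns (31.2%, against 24.5%), 17 in intergenic DNA (26.6%, against 11.3%) and 4 in noncoding genes (6.25%, against 1.87%). No summit lay in a coding exon or a UTR, classes that were rare in the whole list too. The 23 summits at other promoters had a median rank of 1004, against 1485.5 for all promoter summits, and the 41 others had a median rank of 2036. Summits of the same peak interval were counted separately.

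The highest ranks near the patterning genes belonged to promoters of their neighbours. The highest was rank 5, at the promoter of the glycosyltransferase gene Ugt316A1, 17432 bp upstream of nkd, with rank 3 in replicate 2 and 13 in replicate 4. A summit 8044 bp upstream of eve, the even-skipped homeobox gene, ranked 77 (51 in replicate 2 and 103 in replicate 4) and lay at the promoter of CG12134. The promoter of Rab3-GAP, beside prd, held rank 103 (30 and 181 in replicates 2 and 4). The promoter of nej, which encodes the histone acetyltransferase CBP and lies next to the head gap gene btd, held 4 summits in the same peak interval. Their ranks were 110, 148, 216 and 315, and those at 216 and 315 had no match in replicate 4. The summits of Ugt316A1, CG12134 and Rab3-GAP named here ranked high in both replicates, while nkd, eve and prd beside them had no IDR promoter summit.

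Other promoters in the flanks stood lower. Beside sog the promoter of Chsy, a chondroitin synthase gene, held rank 261 (263 in replicate 2 and 251 in replicate 4), and a second summit 515 bp from the same TSS, just outside the promoter window, ranked 401 (1600 and 335). Beside prd the promoters of Ced-12 and of the tRNA synthetase gene ThrRS held ranks 1086 (759 and 1701) and 1982 (2280 and 1930), and a second Rab3-GAP summit, at rank 1004, had no match in replicate 2. Several neighbours of the patterning genes thus carried more than 1 summit. The summits at nej, Rab3-GAP, Chsy and CG12134 lay within 1 peak interval for each gene, so they are not separate peaks. Beside cad, vari held rank 622 (783 and 636) and CG9328 rank 2856, which replicate 2 did not match. Beside eve, Pal1 held rank 763 (765 and 814) and a second CG12134 summit rank 993 (no match and 1003). The promoter of Ama, between bcd and its neighbours, held rank 2427, 3635 bp upstream of bcd, and was matched in replicate 4 only, at rank 1550; zen shares this flank. A further summit 7410 bp upstream of bcd, also nearest to Ama, ranked 1048 (3079 in replicate 2 and 933 in replicate 4). For hb the flanking summits were at Unc50 (rank 1736) and Cks85A (rank 1826), for hkb at CG9776 (rank 2457), for tld at CG13631 (rank 1017) and for gsb at gol (rank 3177). For hb, hkb, tld and gsb no other IDR summit lay within 20 kb.

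An IDR summit in the gene body, away from its promoters, was found in 7 of the patterning genes (15.9%), against 4.64% of all genes. The patterning genes are longer (medians above), and the part of length in this count was not tested. There were 9 such summits, all in introns. The Hox genes held 6 of them: Abd-B, lab and Ubx 1 each and Antp 3. The Abd-B summit, 1983 bp downstream of a TSS, was the highest of the 9 at rank 1492, with rank 4047 in replicate 2 and 1461 in replicate 4. Those of Antp (thorax) ranked 2379 (3152 in replicate 2 and 2558 in replicate 4), 2464 (no match in replicate 2 and 2012 in replicate 4) and 3155 (2300 and 4356). That of lab ranked 2918 (2173 and 3867). The Ubx summit, 19047 bp downstream of the TSS, ranked 2954 (3459 and 3935). The Abd-B summit ranked higher in replicate 4 and those of lab and Ubx higher in replicate 2.

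The other body summits were in sog, nkd and cad. The sog summit, 7077 bp downstream of a TSS, ranked 1765 in the IDR list and nearly the same in each replicate, 2066 in replicate 2 and 1946 in replicate 4. The nkd summit, 2762 bp downstream, ranked 1781 (2073 and 2404). The cad summit ranked 2824 (2116 and 6262), and its nearest TSS was that of Pomp, a proteasome maturation gene, not that of cad.

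**Figure D3:**
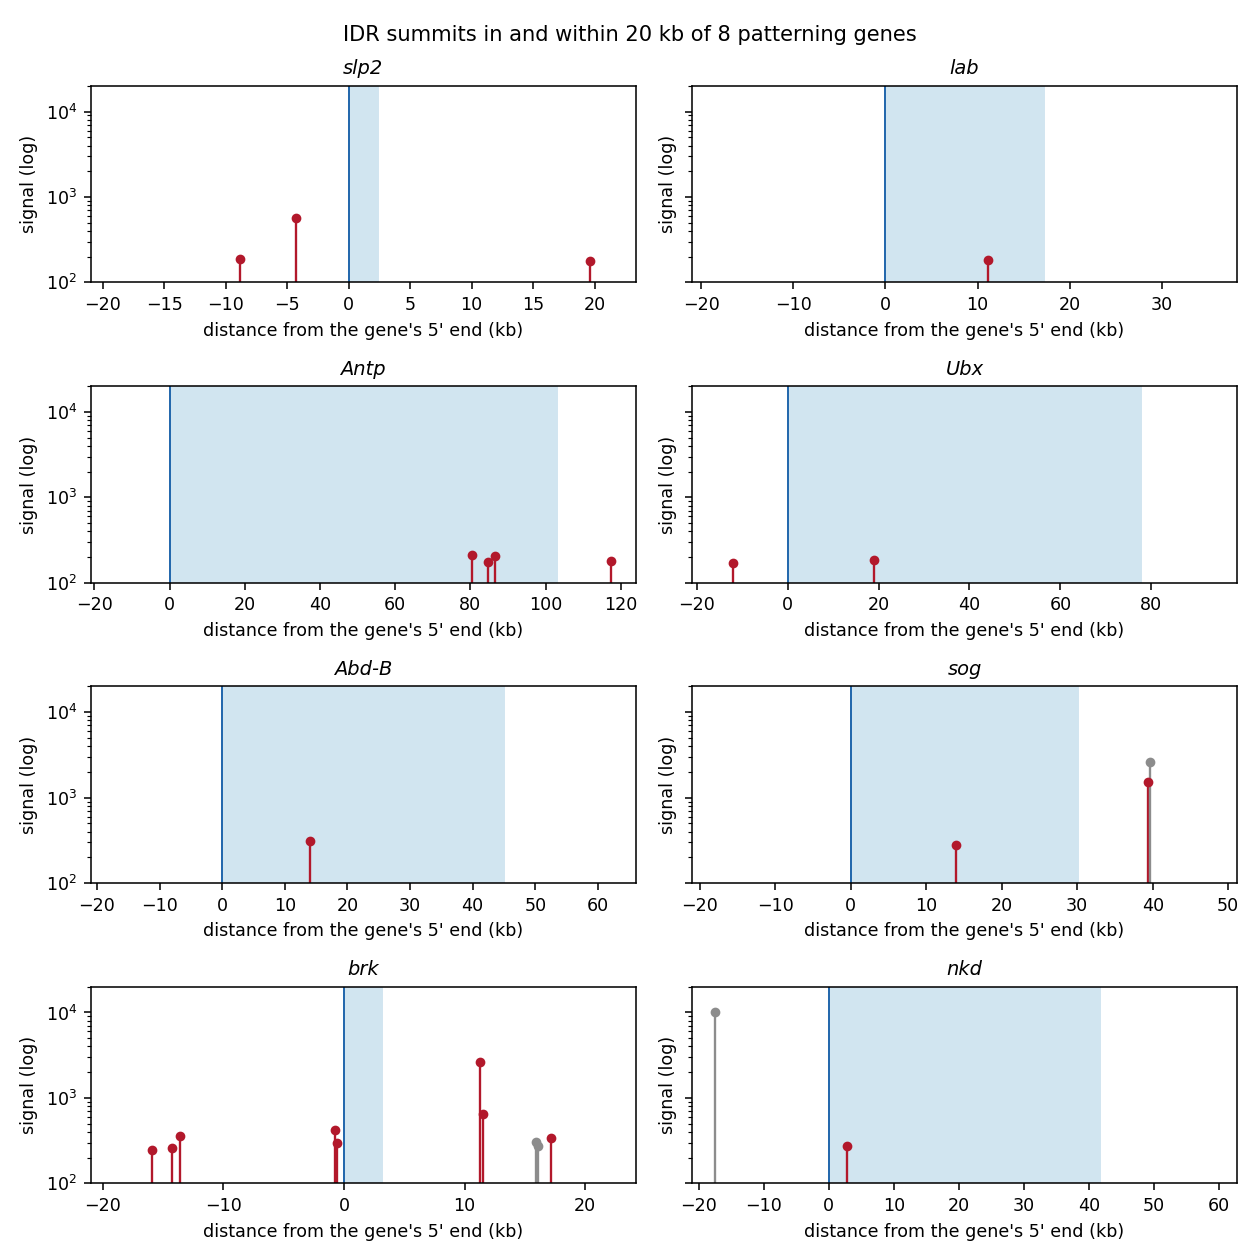
IDR summits by distance in kb from the 5′ end of the gene (horizontal axis; blue shading is the gene, the blue line its 5′ end) and the authors' signal on a log scale (vertical axis), for 8 patterning genes with a body summit or several flanking summits. Red marks summits outside promoters and grey those at the promoter of another gene. Nearest to a 5′ end are the brk summits at 572 and 779 bp upstream, and the highest signal is that at the promoter of Ugt316A1 beside nkd.

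Of the 1269 IDR summits outside any promoter, 21 (1.65%) had a patterning gene as the nearest gene by TSS, while these genes are 0.315% of all genes. They belonged to 16 of the 44 (36.4%), against 6.09% of all genes. These genes also lie farther from the TSSs of other genes (medians above), and the part of that spacing in this count was not tested. Within the windows of 20 kb around the genes, merged to 2.27 Mb, distal IDR summits stood at 1.81 per 100 kb, against 0.95 per 100 kb over the assembled arms. IDR summits of all kinds stood closer, at 2.82 per 100 kb in these windows and 2.44 over the arms. The pooled relaxed list had 30.2 summits of all kinds per 100 kb in these windows and 22.4 over the arms. The gene brk alone, described below, had 10 IDR summits within 20 kb, most of them distal. Distal summits with overlapping peak intervals were counted separately. The 21 summits ranked between 786 and 3155, with a median of 2464, against 1859 for all distal IDR summits.

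The highest of the 21 lay in intergenic DNA 4323 bp upstream of slp2, the second of the sloppy paired forkhead genes, at rank 786 (668 in replicate 2 and 983 in replicate 4). This was also the flank of slp1, which lies on the same strand, and a further summit lay 2288 bp downstream of the slp1 TSS at rank 2823 (4311 and 3674). The slp2 summit was among the highest 3257 peaks of both replicates, and the slp1 summit of neither.

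At brk, the gene for a repressor of Dpp target genes, 10 IDR summits lay within 20 kb, more than at any other patterning gene. The gene (FBgn0024250) lies on X from 7307939 to 7311132, and most of these summits lie in introns of CG1677. The summits nearest its TSS were 779 bp upstream, at rank 1050, and 572 bp upstream, at rank 1589, and their peak intervals overlap. Both rested on replicate 4: the summit at 779 bp ranked 792 in replicate 4 and 28771 in replicate 2, and that at 572 bp ranked 1872 in replicate 4 with no match in replicate 2. A summit 11300 bp downstream, in introns of CG1677 and of the autophagy gene Atg5, ranked 258, with 252 in replicate 2 and 262 in replicate 4. Another, 11525 bp downstream in the same peak interval and also nearest to Atg5, ranked 720, with 2525 in replicate 4 and 26450 in replicate 2. The other summits around brk were nearest to unc-119 (ranks 1274, 1862 and 2060), Atg5 (rank 1519) and Dok (ranks 1339 and 1753). The peak intervals of ranks 1519 and 1753 also overlap, so the 10 summits are not 10 separate peaks. The replicates were thus close at the highest of the 10 summits and far apart at 3 of the others with a match in both. The gene sna showed the same imbalance, with summits 6903 bp downstream at rank 1714 (7171 in replicate 2 and 1115 in replicate 4) and 6702 bp downstream at rank 1910 (no match in replicate 2 and 1398 in replicate 4). Near the Rel factor gene dl, summits in the neighbouring Rel factor gene Dif ranked 1131 (3072 and 1005) and 1938 (9226 and 1365), and a summit on the other side, in BicD and nearest to Sgt, ranked 2349 (2379 and no match). The peak intervals of the sna summits overlap, as do those of the summits in Dif.

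At wg, inv and en the flanking summits ranked in the lower part of the IDR list. For wg, which lies on 2L, they ranked 2036, 2826 and 2935, at 17000, 11118 and 16800 bp upstream, and all 3 ranked higher in replicate 4 than in replicate 2. The summits at 17000 and 16800 bp were nearest to Wnt4, another Wnt gene, and their peak intervals overlap. The engrailed pair had a summit 3364 bp upstream of inv at rank 2600 (2123 in replicate 2 and 3208 in replicate 4) and a summit 13048 bp upstream of en at rank 3053 (2292 and 4248). Both of these ranked higher in replicate 2.

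Among the remaining genes, the head gap gene ems had intergenic summits 20166 and 13121 bp downstream at ranks 2556 and 3135, and the summit nearest to ftz, a pair-rule homeobox gene, ranked 3001 at 17430 bp downstream in the noncoding gene lncRNA:CR44931. The intergenic summit nearest to h ranked 1261 (1156 in replicate 2 and 1344 in replicate 4), 20582 bp downstream. For gt a summit 20297 bp downstream, nearest to CG12496, ranked 2737, and for kni a summit 16224 bp upstream, nearest to CG34260, ranked 2502. For odd, a zinc finger pair-rule gene, a summit in lncRNA:CR43823 ranked 1883 and was nearest to sob, and for slp2 a summit 19650 bp downstream, nearest to TTLL4B, ranked 3083. The replicate ranks of the h summit were nearly equal and those of the gt summit, 6116 in replicate 2 and 2142 in replicate 4, were not.

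The Hox genes lie in 2 complexes, and in both the density of IDR summits of all kinds lay below that of the chromosome arms. The Antennapedia complex, taken from lab to Antp on 3R from 6661427 to 6999228 (338 kb), held 7 IDR summits, or 2.07 per 100 kb. The bithorax complex, taken from Ubx to Abd-B on 3R from 16656623 to 16972236 (316 kb), held 5, or 1.58 per 100 kb. The density over the assembled arms was 2.44 per 100 kb. That figure includes promoter summits, which were 61.0% of the IDR list, and distal summits alone stood at 0.95 per 100 kb over the arms. In the Antennapedia complex only the summit at Ama lay at a promoter. A distal density of each complex was not computed and the counts are small, so these values do not show fewer distal summits in the complexes. In the pooled relaxed list the complexes held 81 and 91 summits, or 24.0 and 28.8 per 100 kb, against 22.4 over the arms. Among the bithorax summits in or within 20 kb of a patterning gene, the highest ranked 1196 (660 in replicate 2 and 3426 in replicate 4). It lay 29227 bp downstream of a TSS of abd-A and was nearest to Glut3. A summit in the noncoding gene lncRNA:bxd, in the regulatory region 12065 bp upstream of Ubx, stood near the end of the list at rank 3174, was nearest to CG31275 and had no match in replicate 4.

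Windows of 50 bp on either side of 8 IDR summits are shown because these summits rank high beside a patterning gene, lie near it or lie in a Hox complex, and because each holds a searched word. Capitals mark the words TAGCTA, GGTCACAC or CAGGTAG on either strand, and all sequences are of the plus strand of dm6.
nkd, 17432 bp upstream (Ugt316A1 promoter), chr3L:19062831-19062931: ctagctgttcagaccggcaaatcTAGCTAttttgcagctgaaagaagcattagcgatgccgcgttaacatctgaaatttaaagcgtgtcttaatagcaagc
btd, 7017 bp upstream (nej promoter), chrX:9687119-9687219: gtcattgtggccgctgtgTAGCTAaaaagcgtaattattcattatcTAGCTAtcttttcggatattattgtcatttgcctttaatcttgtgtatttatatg
slp2, 4323 bp upstream, chr2L:3832467-3832567: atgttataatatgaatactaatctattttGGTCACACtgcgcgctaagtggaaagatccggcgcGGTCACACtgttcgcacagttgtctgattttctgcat
brk, 779 bp upstream, chrX:7307110-7307210: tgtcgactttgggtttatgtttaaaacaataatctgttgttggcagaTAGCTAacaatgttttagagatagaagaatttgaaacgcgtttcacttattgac
sna, 6702 bp downstream, chr2L:15471508-15471608: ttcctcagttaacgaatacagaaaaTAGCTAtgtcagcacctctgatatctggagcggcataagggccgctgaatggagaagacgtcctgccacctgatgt
Ubx, 19047 bp downstream, chr3R:16715329-16715429: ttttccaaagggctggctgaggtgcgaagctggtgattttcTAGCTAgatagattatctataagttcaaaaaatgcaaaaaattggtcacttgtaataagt
Ubx, 12065 bp upstream, chr3R:16746441-16746541: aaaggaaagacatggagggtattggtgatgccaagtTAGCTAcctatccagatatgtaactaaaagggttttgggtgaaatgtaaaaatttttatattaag
abd-A, 29227 bp downstream, chr3R:16798828-16798928: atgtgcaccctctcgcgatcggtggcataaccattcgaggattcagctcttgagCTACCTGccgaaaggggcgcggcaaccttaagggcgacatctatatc
The slp2 window holds GGTCACAC, part of the core promoter element Motif 1, although no promoter is annotated there, and the abd-A window holds CAGGTAG, the word of the genome activator Zelda. The other windows hold TAGCTA.

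Over all 64 summits TAGCTA, a word that an earlier analysis of these data had found at Sry-beta summits, occurred in 12 windows (18.8%), against 7.95% of all IDR windows. Among the 21 distal summits nearest to a patterning gene it occurred in 5 (23.8%), against 6.15% of all 1269 distal windows. The Motif 1 word GGTCACAC occurred in 2 of the 64 (3.12%), against 1.96%, and CAGGTAG in 1 (1.56%), against 0.491%. The DRE word TATCGATA occurred in 1 of the 64, against 3.32% of all IDR windows, the Bicoid word TAATCC in 1, against 2.86%, GAGAGA in 2 (3.12%), against 3.50%, and the Pho word GCCATT in 3 (4.69%), against 5.16%. The word AGAGATG occurred in none of the 64 within 50 bp, against 3.19%, and in 4 (6.25%) within 100 bp, against 6.51%. All words were searched exactly and on both strands within 50 bp of the summit, none contains another although GAGAGA and AGAGATG can overlap, and most of these counts are of 3 windows or fewer. The mean GC content was 33.7% at the 64 summits and 36.2% at all IDR summits.

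The replicates were compared at these summits through their own relaxed lists. A summit within 100 bp was found in both replicates for 51 of the 64 (79.7%), against 86.7% of all IDR summits, and 29 of the 64 (45.3%) were among the highest 3257 peaks of both, against 58.5%. Among the 21 distal summits nearest to a patterning gene, 7 were in the highest 3257 of both replicates, against 54.1% of all distal summits. Taken singly, 10 of the 21 were in the highest 3257 of replicate 2 and 15 in those of replicate 4. Over the 51 matched summits neither replicate led, with 25 ranked higher in replicate 2 and 26 in replicate 4. The 21 distal summits also have lower ranks in the IDR list (median above), and the part of rank in these shares was not tested.

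**Figure D4:**
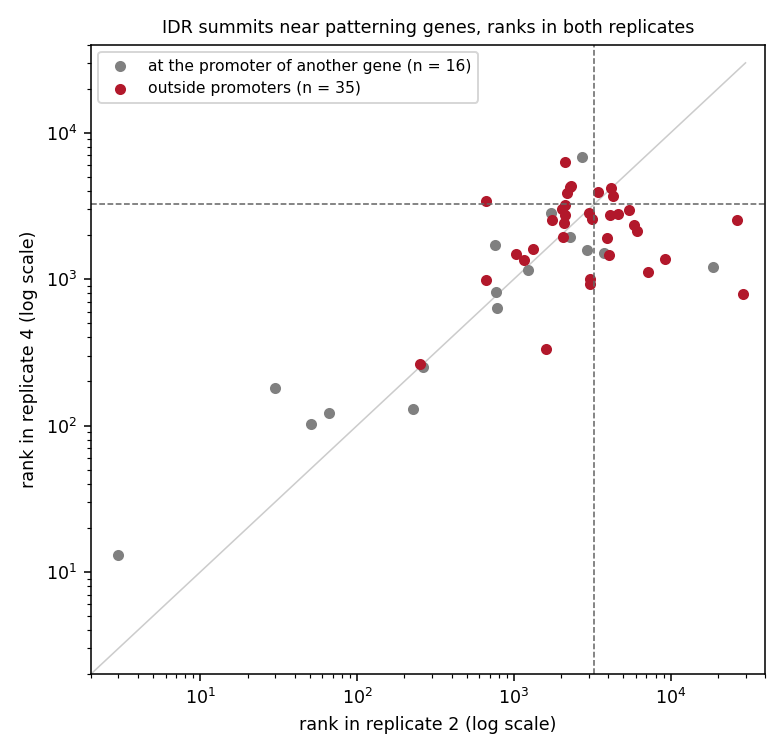
Rank in replicate 2 (horizontal axis) against rank in replicate 4 (vertical axis), both on log scales, of the 51 IDR summits in or within 20 kb of a patterning gene that were matched in both replicates: 35 outside promoters (red) and 16 at the promoter of another gene (grey). Dashed lines mark rank 3257 and the diagonal marks equal ranks. The highest ranks are grey, and the red points at the far right, with ranks 28771 and 26450 in replicate 2, are summits near brk.

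Other genes of the same pathways, from lists of names, were counted in the same way and are to be read beside the 18.0% of all genes that had an IDR promoter summit. Of 22 maternal patterning genes 5 had an IDR promoter summit: tub, an adaptor of Toll signalling, at rank 818 (715 in replicate 2 and 945 in replicate 4), the germ line helicase gene vas at 1084 (991 and 1240), exu, which acts in the localisation of bcd mRNA, at 1524 (1497 and 1973), the corepressor gene gro at 1617 (1664 and 1861) and cact, the inhibitor of Dorsal, at 1728 (1861 and 2467). Of 7 other gap, head and terminal genes 1 did, the forkhead gene fkh at rank 1040 (791 and 1526). Of 15 other segment polarity genes 2 did: ci, the Hedgehog pathway transcription factor, at rank 219 (235 and 214), and fz, the Frizzled receptor gene, at rank 2841 (2971 and 2944).

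Of 14 other zygotic dorsoventral genes 2 had an IDR promoter summit, the mesoderm genes Mef2 at rank 791 (688 in replicate 2 and 936 in replicate 4) and tin at rank 1911 (1602 and 2365). Of the 3 genome activation genes none did. These promoter summits had a counterpart in both replicates at similar ranks. They were named because they are in the IDR list, where 86.7% of all summits were matched in both replicates. The agreement is thus not a trait of these genes. Of the 22 maternal genes 11 had a head-to-head partner, as did 0 of the 7 other gap, head and terminal genes, 5 of the 15 other segment polarity genes, 2 of the 14 other dorsoventral genes and 1 of the 3 genome activation genes, against 1 of the 44. Among the genes with an IDR promoter summit, exu, vas, cact and Mef2 had such a partner, and tub, gro, fkh, ci, fz and tin had none.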

How the data were processed

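Per the labels, both libraries (biological replicates 2 and 4) came from whole embryos and the assembly was dm6. The deposited files are 4 peak lists in narrowPeak format. Per the deposited readme files, each relaxed list came from 1 alignment, or from both, set against a shared control alignment, and the relaxed lists were the source of the IDR list. The sources used here do not name the peak caller or state the IDR threshold. The signal of each peak is the authors' own on an unstated scale and was used only for ranks within a list. The −log10 q values deposited by the authors were not used for ranking. A summit listed past its peak's end was placed on the last base (2 IDR summits, 2 pooled, 1 in replicate 2 and 3 in replicate 4). The control alignment and other replicate numbers were not analysed here.

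Summits were assigned with Python 3.11.15, numpy 2.4.6 and pandas 2.3.3 to protein-coding genes of Ensembl release 115, first as promoter (500 bp), then body, then flank (20 kb). A replicate summit within 100 bp counted as a match. Scripts were tested on simulated peaks. Words were searched 50 bp on either side of a summit. Members, gene lists, words and comparisons were chosen with earlier results of these data known. Members with an IDR summit in or within 20 kb were named, then those with the highest relaxed promoter summits or with none, the nearest gene of each summit named, and genes of the other lists with an IDR promoter summit. The alternatives tried were the promoter window, the 5′ end alone, the flank, the match distance, higher-signal peaks, the word window and each replicate alone. Sequence within a UTR and on some chromosome arms is not printed.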

Additional observations from a re-analysis of the deposited data

How the results depend on the processing

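The count of patterning genes with an IDR promoter summit, 0 of 44, was also 0 with a promoter window of 250 bp, with the 5′ end alone and with IDR peaks at or above the median signal. A window of 1000 bp gave 1, brk, through the summit 779 bp upstream. Over all protein-coding genes the count of 2518 became 2096 at 250 bp, 2325 with the 5′ end alone and 2804 at 1000 bp. With each replicate's highest 3257 peaks in place of the IDR list, leaving out a replicate gave 0 to 1, the 1 being bcd without replicate 4. The pooled relaxed count of 21 fell to 13 with a window of 250 bp. With peaks at or above the median signal it was 7 (15.9%, against 42.8% of all genes). A replicate alone gave 16 (36.4%, against 50.4%) to 26 (59.1%, against 54.6%). The count of genes with an IDR summit in or within 20 kb, 31, became 16 with peaks at or above the median signal and 18 with a flank of 10 kb, and a replicate alone gave 28 to 30. Counts over all genes are not given for these alternatives of the 31, so their changes cannot be compared with those of all genes. The 64 summits became 28 with peaks at or above the median signal, 31 with a flank of 10 kb and 136 with 50 kb, and a replicate alone gave 51 to 60. The median distance to the nearest summit was 15711.5 bp, 31432 bp with peaks at or above the median signal and 17959 to 18145 bp with a replicate alone. Matches in both replicates numbered 34 at 50 bp, 51 at 100 bp, 58 at 200 bp and 64 by overlap of the peaks. With words searched within 100 bp of the 64 summits AGAGATG occurred in 6.25% in place of 0, and within 25 bp TAATCC and TATCGATA each occurred in 0 in place of 1.56%. TAGCTA occurred in 15.6% within 25 bp and in 23.4% within 100 bp, against 4.82% and 12.9% of all IDR windows. The AGGGGGCG of the bcd and prd windows lay outside 25 bp, where 0 of the 24 relaxed promoter windows held it. The cause of these changes was not tested beyond the change in peaks or distance that each alternative makes. No paired analysis was possible because the design has 1 group. The depth of the libraries is unknown, so a relaxed list of fixed length says nothing of absolute occupancy.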
